A study of Mus musculus with 198 samples.

Results

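Bone marrow and spleen of control mice were each compared with 7 other tissues of the same animals, namely gonadal fat, subscapular fat, lung, heart, kidney, liver and skin. A gene was counted as shared by the blood-forming tissues when it was higher in bone marrow and also in spleen than in every one of the 7. Of 17937 genes tested, out of 56332 features in the count table, 967 met this rule, which is 5.39% of the genes tested. The comparison held 24 bone marrow and spleen libraries and 82 libraries of the other tissues, out of 198 libraries in the series. All of them came from 12 C57BL/6 mice, 6 female and 6 male, that had the control treatment for 17 weeks. The other arm of the study, 10 C57BL/6 mice that received an antibody against PAPP-A (aPAPPA) for 17 weeks, was used here as a repeat in animals that the rule did not use. The labels state neither the age of the mice nor what the control treatment was. RNA was taken from whole tissue, so in these bulk samples fewer cells of a type and less RNA per cell cannot be told apart.

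Bone marrow is where blood cells of the adult mouse are made from stem and progenitor cells, and it holds maturing neutrophils, red cell precursors, megakaryocytes and developing B cells. The spleen filters blood in its red pulp, holds mature B and T cells in its white pulp, and in mice it also keeps some production of red cells. A gene shared by both can therefore mark any leukocyte, a lineage present in both organs, or precursors of the red cell, and the other organs hold such cells as tissue-resident leukocytes or in the blood inside their vessels.

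Total counts of the control libraries compared ran from 4138419 to 16555811, but 9 features, among them Gm42418, Lars2 and the mitochondrial ribosomal RNAs mt-Rnr1 and mt-Rnr2, took 47.4% to 98.3% of each library. The usable count outside them was 348391 to 2550293 in bone marrow, 278665 to 2908950 in spleen and 201092 to 4694597 in the other tissues. Lung of mouse C_68 and heart of mouse C_22 were left out, since the mean level of their tissue markers was 1.10 and 7.31 on the log2 scale against 9.59 to 10.7 and 10.2 to 11.8 in the other 11 libraries, with adipocyte markers at 9.82 and 9.46. Further control libraries stood apart without being left out. Subscapular fat of mouse C_20 had a mean of 7.22 for the B cell list and 6.12 for the T cell list, against highest values of 2.18 and 1.41 in the other 11 subscapular fat libraries. Spleen of mouse C_45 had exocrine pancreas markers at 8.28 (others up to 1.35), and bone marrow of mice C_55 and C_11 had skeletal muscle markers at 8.19 and 5.84 (median of the others 0.91). Bone marrow of mouse C_3 had the same muscle markers at 3.82, lung of mouse C_37 had adipocyte markers at 8.47 (median of the others 3.78), and spleen of mouse C_22 had the highest red cell genes, described with them. Defining markers of spleen stroma were at 3.95 to 5.18 in spleen and at -0.73 to 1.24 in bone marrow, while bone cell markers were at 0.46 to 1.56 in bone marrow and 3 of the 12 had no count in any marrow library. Without the fat library 1007 genes were shared, and 975 without the 4 libraries of mice C_20, C_45, C_55 and C_11. With all tissues of 1 mouse left out, 834 were shared without C_37, 871 without C_3 and 870 without C_22.

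For each gene the smallest of its 14 log2 fold changes (2 tissues against 7) is given, with an approximate standard error (SE) and the adjusted p of the whole rule from edgeR. The SE is the absolute log2 fold change divided by the square root of the edgeR F statistic. It is least certain where a tissue has almost no counts. Levels are given as CPM, counts scaled by the TMM-adjusted library total, which includes the 9 abundant features, and a level is compared between tissues and never between genes. Of the 967 shared genes, 621 had every one of the 14 log2 fold changes at 1 or more (3.46% of the genes tested), 236 at 2 or more and 56 at 3 or more, and the median of the smallest difference was 1.24. In 294 shared genes bone marrow and spleen both lay above every other tissue in each of the 12 mice, and in 804 they did so in 10 or more. Among the 17937 genes, 86 had every bone marrow and spleen library above every other library, and all 86 were among the shared genes. Protein-coding genes made up 70.4% of the shared set and 79.8% of the genes tested. Of 65 immunoglobulin or T cell receptor segments tested, 10 were shared (15.4%). The genes nearest to the threshold were Dido1, Esco1 and Cd80 inside it (adjusted p 0.0488, 0.0494 and 0.0494) and N4bp2, Hdac1 and Tbk1 outside it (0.05, 0.0503 and 0.0506).

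Gonadal fat, lung and skin set the margin for most shared genes. Gonadal fat came closest to bone marrow or spleen for 286 of the 967 genes, lung for 255 and skin for 199, followed by subscapular fat (100), kidney (46), liver (46) and heart (35). The smaller margin lay with spleen for 595 genes and with bone marrow for 372. Leaving a tissue out of the rule showed a different order. Without skin 548 genes were added and the set grew to 1515, against 171 added without lung, 158 without gonadal fat, 62 without kidney, 55 without liver, 45 without heart and 25 without subscapular fat. Genes added without skin included 7 DNA replication genes (Cdc6, Cdt1, Mcm3, Mcm5, Mcm7, Prim1 and Rrm2), 9 replication-dependent histone genes and 3 mitosis genes. Genes added without lung included Myb, Runx1 and Cbfa2t3, and the neutrophil genes Cd177, Mmp8 and Retnlg. Those added without gonadal fat included Spi1 and 6 genes of the plasma cell list (Ighm, Igkc, Iglc1, Iglc2, Iglc3 and Jchain).

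**Figure D1:**
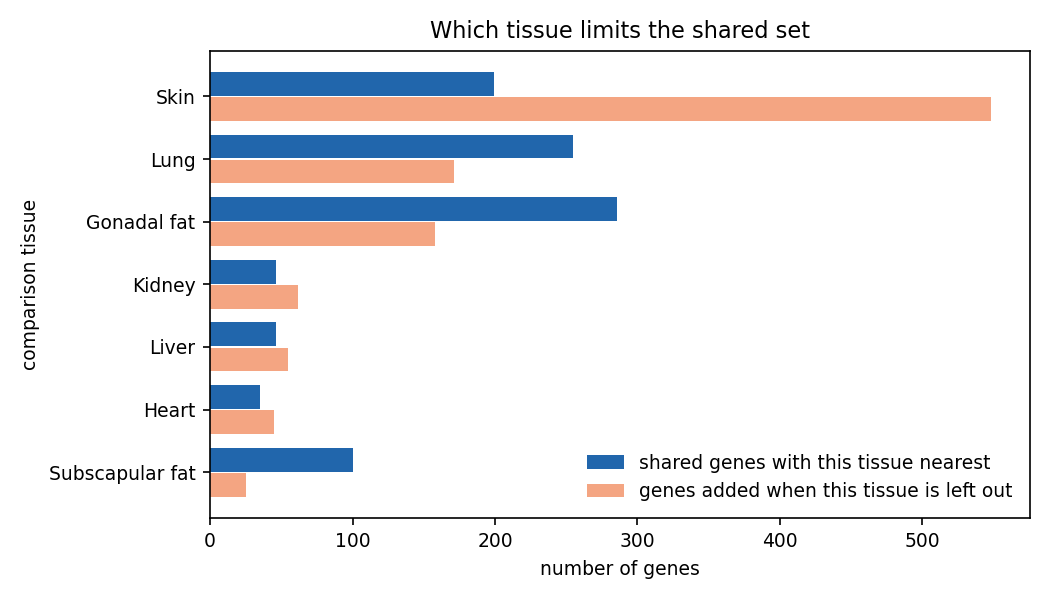
Number of genes (horizontal axis) for each of the 7 comparison tissues (vertical axis): blue bars count the shared genes for which that tissue had the smallest difference, and orange bars the genes added when the tissue was left out of the rule. Skin was nearest for 199 genes, and 548 were added without it.

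Most genes that leukocytes of all kinds use were shared. Of 40 tested genes of leukocyte signalling and the leukocyte cytoskeleton, 34 were shared (85%, against 5.39% of all genes tested). The median smallest difference of the list was 1.84, against -1.35 over all genes tested. Ptprc encodes CD45, the receptor phosphatase found on all leukocytes (mm10, GENCODE vM21, chromosome 1, 138062861 to 138175708, minus strand). Its lowest, median and highest levels (the order used throughout) were 224, 241 and 304 CPM in bone marrow, 164, 229 and 264 CPM in spleen, 15.3, 22 and 56.5 CPM in gonadal fat and 20, 26.6 and 29.2 CPM in lung. The 24 bone marrow and spleen libraries lay above all libraries of the other tissues except subscapular fat of mouse C_20, which reached 214 CPM where the subscapular fat median was 9.83. The smallest difference of Ptprc was 3.01 ± 0.28 (spleen against gonadal fat, adjusted p = 3.86e-15), and bone marrow and spleen differed by 0.15 ± 0.26 (adjusted p = 0.635) in log2 terms, which did not pass. Skin had the lowest median for Ptprc, 2.93 CPM, with liver (7.12), kidney (7.58) and heart (8.46) close together above it.

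Adaptors and cytoskeletal regulators were among the 34. Dok3, an adaptor that restrains receptor signalling, had 14.5, 18.1 and 25.9 CPM in bone marrow, 5.8, 8.88 and 10.5 CPM in spleen and 0.182, 1.17 and 2.06 CPM in gonadal fat, with a smallest difference of 3.04 ± 0.28 (spleen against gonadal fat, adjusted p = 1.32e-15). Cd52, a short glycoprotein of the leukocyte surface, had a smallest difference of 3.03 ± 0.28 (bone marrow against gonadal fat, adjusted p = 3.76e-15) with medians of 24 CPM in bone marrow, 29.5 in spleen and 1.95 in lung. Arhgap15, which switches off Rac, reached 2.91 ± 0.27 (spleen against gonadal fat, adjusted p = 3.7e-15). The members that missed the rule closest were the integrin chain Itgb2 (0.75 ± 0.25, spleen against gonadal fat, adjusted p = 0.0577), the lysosomal protein Laptm5 (0.63 ± 0.24, bone marrow against gonadal fat, adjusted p = 0.149) and the cytokine receptor chain Il2rg (0.53 ± 0.32, bone marrow against lung, adjusted p = 1). Itgb2 passed under 13 of its 24 alternatives, among them DESeq2, limma-voom and RLE scaling. In gonadal fat the lowest and highest Itgb2 levels were 4.04 and 40.2 CPM, which overlapped those of spleen (18.1 to 31.1).

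The genes whose log2 CPM followed Ptprc most closely over all control libraries compared were Dock2 (Pearson r = 0.982), Rac2 (r = 0.975) and Ikzf1 (r = 0.975). These values describe libraries that share 12 mice and 9 tissues, and carry no test. Dock2 activates Rac during leukocyte migration and had a smallest difference of 2.13 ± 0.25 (bone marrow against gonadal fat, adjusted p = 6.73e-11). Rac2 is the Rac form of blood cells and had 31.8, 45.2 and 52.9 CPM in bone marrow, 26.3, 35.5 and 41.1 CPM in spleen and 1.51, 5.02 and 9.72 CPM in gonadal fat. The lowest bone marrow or spleen level of Rac2 was above its highest level in gonadal fat.

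**Figure D2:**
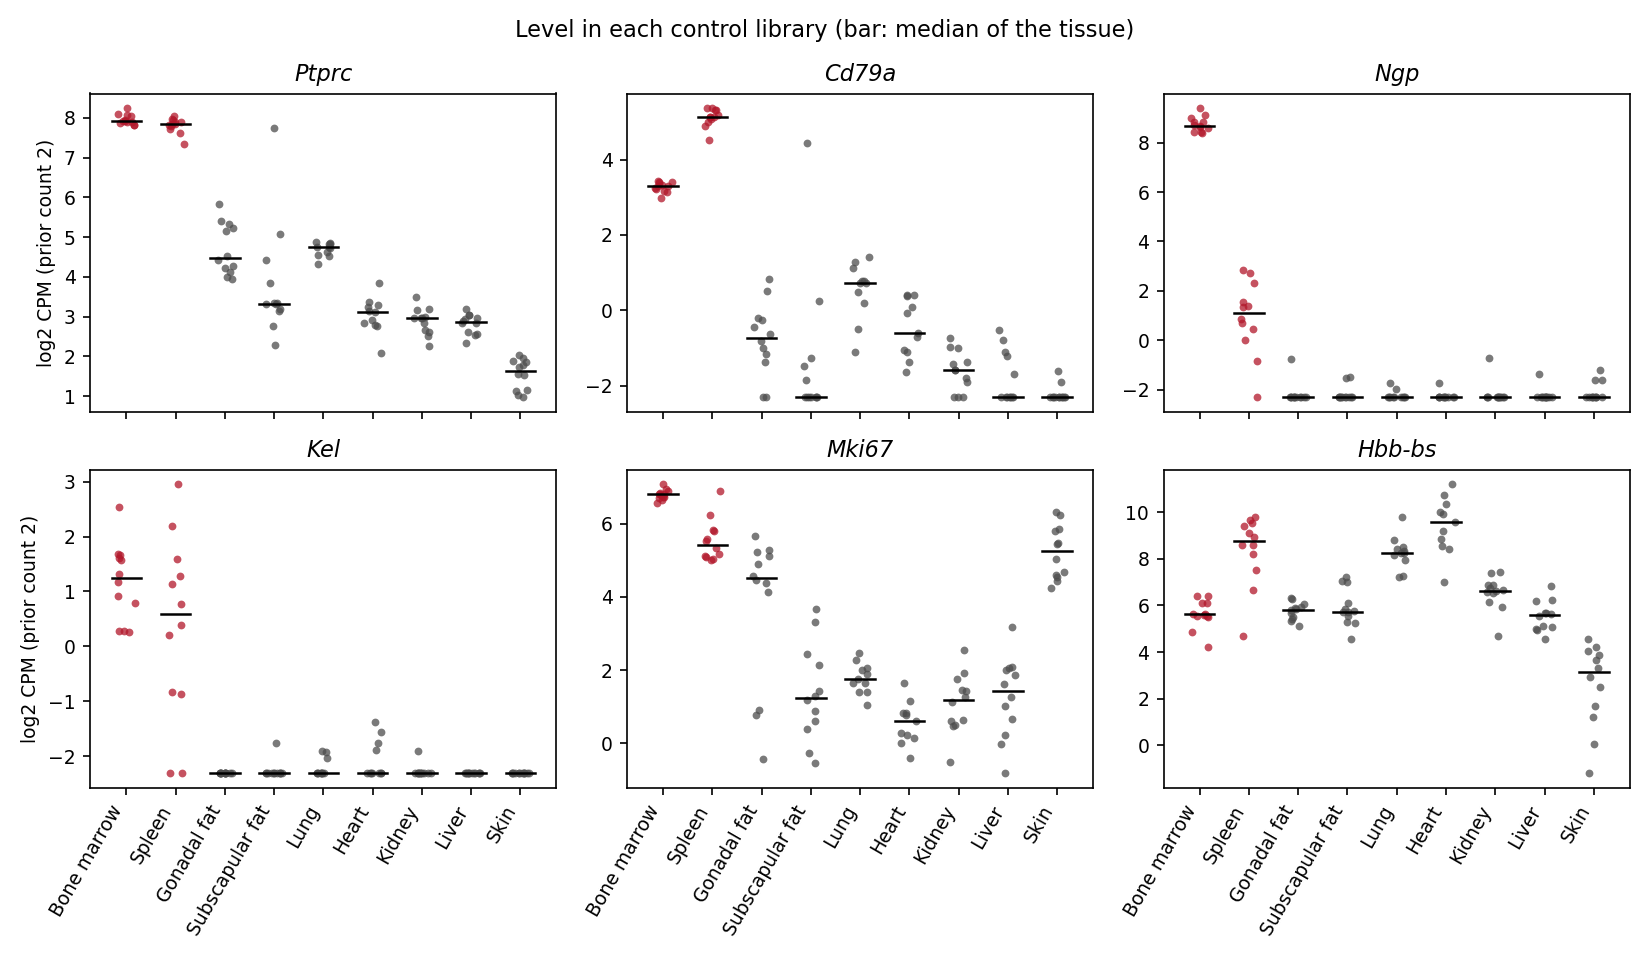
Level of 6 genes in each control library compared (vertical axis, log2 CPM with a prior count of 2; horizontal axis, tissue; red, bone marrow and spleen; grey, other tissues; bars, tissue medians). Ptprc and Cd79a lie above the other tissues apart from 1 subscapular fat library, Ngp is far higher in bone marrow than in spleen, Kel is at the floor in most other libraries, Mki67 of spleen overlaps skin and gonadal fat, and Hbb-bs is highest in heart.

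Adhesion and homing receptors were shared in 9 of 15 cases (60%, against 5.39% of all genes tested). The integrin chains Itgal and Itga4 had smallest differences of 2.08 ± 0.27 (spleen against lung, adjusted p = 2.04e-09) and 2.07 ± 0.17 (bone marrow against lung, adjusted p = 8.15e-18), and the sphingosine phosphate receptor S1pr4 of 1.78 ± 0.29 (spleen against lung, adjusted p = 9.93e-07). For Itga4, lung and gonadal fat had close medians, 15.3 and 15.3 CPM, against 63.1 in bone marrow and 69.9 in spleen. Receptors used by T cells did not pass: Ccr7 had a median of 0.813 CPM in bone marrow, 6.49 in spleen and 1.12 in lung (smallest difference 0.04 ± 0.39, bone marrow against lung, adjusted p = 1), and Cxcr3 had -0.15 ± 0.37 (bone marrow against gonadal fat, adjusted p = 1).

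Transcription factors of blood formation passed in 9 of 25 cases (36%, against 5.39% of all genes tested). These were Spib, Ikzf3, Ikzf1, Gfi1, Klf1, Bcl11a, Lyl1, Fli1 and Lmo2. Ikzf1 (Ikaros), needed for the lymphoid lineages, had 29.5, 36.3 and 45.7 CPM in bone marrow, 33.1, 42.6 and 45.6 CPM in spleen and 2.09, 4.02 and 8.66 CPM in gonadal fat, with a smallest difference of 2.98 ± 0.28 (bone marrow against gonadal fat, adjusted p = 3.86e-15). Ikzf3 (Aiolos), its relative in B cells, was higher in spleen, with medians of 18.4 CPM in bone marrow and 49.4 in spleen (marrow against spleen -1.40 ± 0.30, adjusted p = 3.49e-05), with a smallest difference of 3.08 ± 0.35 (bone marrow against lung, adjusted p = 1.28e-11). Gfi1, a repressor needed for neutrophil formation, was higher in bone marrow, 2.89 against 0.743 CPM, and its median elsewhere was 0 except in lung, 0.0638 (smallest difference 2.97 ± 0.45, spleen against subscapular fat, adjusted p = 1.4e-07). Klf1, the red cell activator of globin genes, only just passed at 1.29 ± 0.42 (bone marrow against liver, adjusted p = 0.0487), and the call was lost under 17 of 23 alternatives, DESeq2, limma-voom and the fit without the 4 libraries among them.

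Myb, Spi1 and Nfe2 were higher in bone marrow than in spleen and missed the rule. Myb, which keeps progenitors dividing, had 19.5, 22.5 and 28.4 CPM in bone marrow, 1.39, 3.34 and 6 CPM in spleen and 1.25, 2.88 and 4.15 CPM in lung. Its spleen levels overlapped those of lung, and the smallest difference was 0.36 ± 0.25 (spleen against lung, adjusted p = 1). Spi1 (PU.1), the myeloid and B cell factor, had medians of 14.3 CPM in bone marrow, 5.38 in spleen and 4.33 in gonadal fat, with a smallest difference of 0.17 ± 0.23 (spleen against gonadal fat, adjusted p = 1). Nfe2, of red cells and platelets, had 13.5 CPM in bone marrow and 0.901 in spleen, at the level of liver (1.18). Runx3 was limited by skin (0.61 ± 0.29, bone marrow against skin, adjusted p = 0.502). Among progenitor receptors 2 of 16 passed (12.5%, against 5.39% of all genes tested), and 1 of 16 in the fit without the replicate block. The 2 were Il7r (1.24 ± 0.36, bone marrow against gonadal fat, adjusted p = 0.0209) and Flt3 (1.15 ± 0.33, bone marrow against gonadal fat, adjusted p = 0.0182), and both were higher in spleen than in bone marrow. Leaving out 1 mouse ended the calls of Il7r (any of 5 mice, 1.09 to 1.14) and Flt3 (1.02 without C_11, 0.97 without C_18). In all, their call was lost under 9 and 5 of 24 alternatives.

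B cell genes were the lineage list with the largest share in the set. Of 21 tested, 19 were shared (90.5%, against 5.39% of all genes tested), and the median smallest difference was 2.60. Of the 19, 16 were higher in spleen than in bone marrow while none was higher in bone marrow. Cd79a, the signalling chain of the B cell receptor (chromosome 7, 24897381 to 24902197, plus strand), had 7.62, 9.57 and 10.7 CPM in bone marrow, 22.8, 34.8 and 41.2 CPM in spleen and 0.26, 1.46 and 2.47 CPM in lung. All bone marrow and spleen libraries were above all lung libraries, and subscapular fat of mouse C_20 alone reached 21.6 CPM against a subscapular fat median of 0. The smallest difference of Cd79a was 2.79 ± 0.41 (bone marrow against lung, adjusted p = 5.73e-08), and bone marrow lay below spleen by a log2 difference of -1.91 ± 0.34 (adjusted p = 1.25e-06). Spib, an ETS factor of B cells and plasmacytoid dendritic cells, had 3.71 ± 0.37 (bone marrow against lung, adjusted p = 1.07e-13), and the B cell lectin Siglecg, which dampens receptor signals, had 3.98 ± 0.33 (bone marrow against lung, adjusted p = 2.36e-17). Siglecg differed between bone marrow and spleen by -0.28 ± 0.26 (adjusted p = 0.354), which did not pass, and its levels were 11.8, 17.3 and 21.7 CPM in bone marrow, 13.6, 20.3 and 30.6 CPM in spleen and 0.715, 1.04 and 1.65 CPM in lung. The list members that did not pass were Ralgps2 (0.59 ± 0.28, bone marrow against skin, adjusted p = 0.46) and Ebf1, the B cell specification factor, which fat also expresses. Ralgps2 passed without the subscapular fat library of mouse C_20 and without the 4 libraries (0.58 in both). The Ebf1 median was 41.3 CPM in subscapular fat and 35.4 in gonadal fat against 26.3 in bone marrow and 37 in spleen.

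The promoter of Siglecg is shown because this gene has the largest margin of the B cell list. It lies at chr7:43407989-43408288, plus strand (RefSeq, GRCm38.p6), and capitals mark a match to the ETS letters GAGGAAG, on the opposite strand, that begins at -213 from the start.
Siglecg: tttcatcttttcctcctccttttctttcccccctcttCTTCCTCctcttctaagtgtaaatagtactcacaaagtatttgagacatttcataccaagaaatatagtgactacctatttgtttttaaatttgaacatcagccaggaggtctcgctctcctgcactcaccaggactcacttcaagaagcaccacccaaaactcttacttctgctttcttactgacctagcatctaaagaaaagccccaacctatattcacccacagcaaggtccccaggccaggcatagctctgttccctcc
The window of the other RefSeq start of Siglecg held none of the motifs searched.

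Some immunoglobulin and antigen presentation genes were shared. Of 13 plasma cell and immunoglobulin genes 2 were shared (15.4%), and of 10 MHC class II genes 3 (30.0%), against 5.39% of all genes tested. Ighd, the heavy chain of the IgD receptor of naive B cells, had 7.88, 11.3 and 15.6 CPM in bone marrow, 27.1, 51 and 67.3 CPM in spleen and 0.376, 1.91 and 2.87 CPM in lung, with a smallest difference of 2.73 ± 0.43 (bone marrow against lung, adjusted p = 3.64e-07). Irf4, which drives plasma cell formation, had 0.73 ± 0.21 (bone marrow against gonadal fat, adjusted p = 0.0133). Iglc1 and Iglc3, light chain constant segments, and Mzb1, a chaperone of antibody secretion, did not pass (0.80 ± 0.39, bone marrow against gonadal fat, adjusted p = 0.535, 0.72 ± 0.42, bone marrow against gonadal fat, adjusted p = 0.995 and 1.09 ± 0.39, bone marrow against gonadal fat, adjusted p = 0.112), and gonadal fat was the nearest tissue of all 3. Mzb1 passed without the subscapular fat library of mouse C_20 (1.10), without the 4 libraries (1.15) and with limma-voom (1.32). Reads of immunoglobulin segments can be split between near-identical copies, so these values are uncertain. The shared class II genes were H2-Ob (2.03 ± 0.37, bone marrow against lung, adjusted p = 1.86e-05), H2-DMb2 (1.94 ± 0.32, bone marrow against lung, adjusted p = 1.17e-06) and H2-Oa (1.46 ± 0.43, bone marrow against lung, adjusted p = 0.0211), chains of the DO and DM molecules that control peptide loading. The class II activator Ciita had medians of 7.98 CPM in bone marrow, 37.1 in spleen and 5.5 in lung, with a smallest difference of 0.40 ± 0.24 (bone marrow against lung, adjusted p = 1). When 1 mouse was left out, the call ended for Irf4 (any of 4 mice, 0.64 to 0.70) and H2-Oa (any of 4 mice, 1.34 to 1.50). All 10 class II genes were higher in spleen than in bone marrow.

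T cell genes were high in spleen and low in bone marrow. All 25 tested were higher in spleen than in bone marrow, and 3 were shared: Cd3d (1.59 ± 0.28, bone marrow against subscapular fat, adjusted p = 5.96e-06), Cd8a (1.27 ± 0.34, bone marrow against subscapular fat, adjusted p = 0.00659) and Cd27 (1.26 ± 0.33, bone marrow against subscapular fat, adjusted p = 0.0062). These 3 are 12% of the list, against 5.39% of all genes tested. With 1 mouse left out the call was lost for Cd8a (1.11 without C_3, 1.07 without C_61) and Cd27 (1.08 without C_4). Cd3e, a signalling chain of the T cell receptor, had 0, 0.55 and 1.13 CPM in bone marrow, 3.08, 4.23 and 11.1 CPM in spleen and 0, 0.129 and 9.61 CPM in subscapular fat. Bone marrow overlapped subscapular fat, where the highest value is that of mouse C_20. The kinase Lck had 0.86 ± 0.40 (bone marrow against subscapular fat, adjusted p = 0.451) and reached 1.44 without that library, when it passed. Without it 6 T cell genes were shared, against 3 with it, while Cd3e still did not pass at 0.81. Of 9 natural killer (NK) and cytotoxic genes 4 were shared (44.4%, against 5.39% of all genes tested). They were Nkg7 (2.25 ± 0.38, bone marrow against subscapular fat, adjusted p = 3.32e-06), Eomes (1.54 ± 0.39, bone marrow against gonadal fat, adjusted p = 0.00423), Ncr1 (1.19 ± 0.35, bone marrow against subscapular fat, adjusted p = 0.0252) and Klrd1 (1.11 ± 0.35, bone marrow against lung, adjusted p = 0.0393). Their bone marrow medians were 0.615 to 1.31 CPM, and leaving out 1 mouse ended the calls of Ncr1 (any of 10 mice, 1.07 to 1.22) and Klrd1 (any of 7 mice, 1.00 to 1.09). Klrk1 (NKG2D) lay just outside at 1.07 ± 0.35 (bone marrow against subscapular fat, adjusted p = 0.052) and passed without the fat library.

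Of 11 dendritic cell genes 3 were shared (27.3%), and of 10 genes of mast cells, basophils and eosinophils 2 (20%), against 5.39% of all genes tested. Siglech, a receptor of plasmacytoid dendritic cells, had 2.29, 3.78 and 7.43 CPM in bone marrow, 1.28, 2.7 and 3.83 CPM in spleen and 0.125, 0.593 and 1.52 CPM in lung, with a smallest difference of 2.08 ± 0.27 (spleen against lung, adjusted p = 1.42e-09), and Irf8, a factor of dendritic cells and monocytes, had 1.68 ± 0.24 (bone marrow against gonadal fat, adjusted p = 3.88e-08). Prg2, the major basic protein of eosinophil granules, had 2.26, 5.93 and 12.2 CPM in bone marrow, 0, 1.21 and 1.79 CPM in spleen and 0, 0.036 and 0.728 CPM in gonadal fat, with a smallest difference of 3.78 ± 0.41 (spleen against gonadal fat, adjusted p = 2.72e-12). Ccr3, the eotaxin receptor of eosinophils, was higher in spleen, 3.56 against 0.717 CPM (smallest difference 1.81 ± 0.41, bone marrow against gonadal fat, adjusted p = 0.000883). The basophil protease Mcpt8 and the basophil protease Prss34 had medians of 2.47 and 5.62 CPM in bone marrow and 0 and 0.0859 in spleen, and neither passed.

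**Figure D3:**
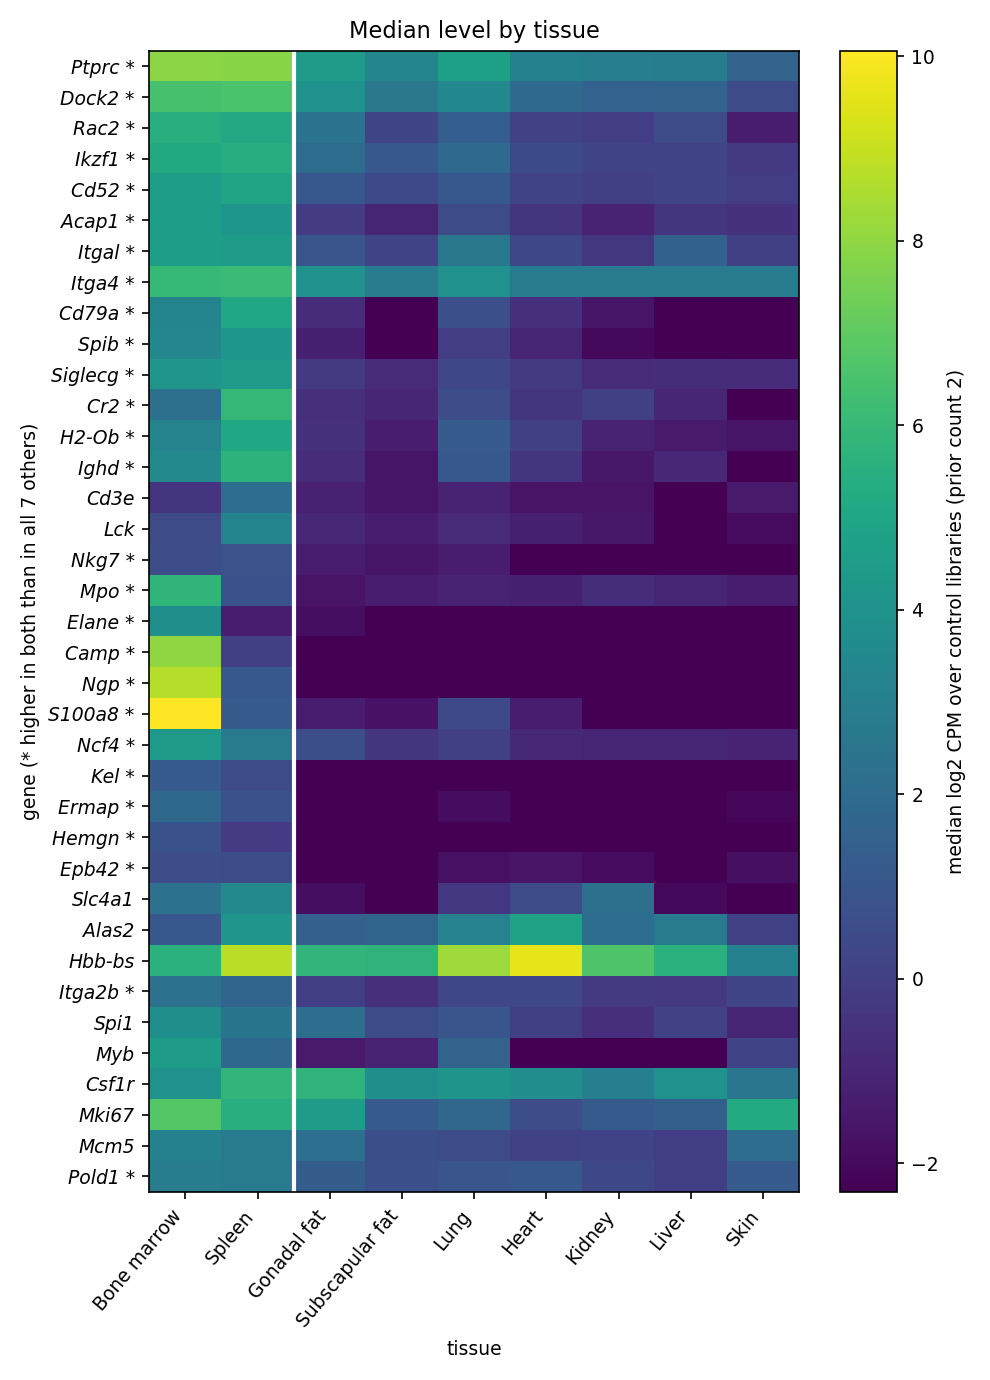
Median log2 CPM (colour, prior count of 2) of selected genes (vertical axis; an asterisk marks a shared gene) in each of the 9 tissues (horizontal axis), with bone marrow and spleen left of the white line. Leukocyte genes are high in both tissues, granule genes mainly in bone marrow, T cell genes mainly in spleen, and Hbb-bs and Alas2 are highest in heart.

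Some neutrophil granule genes were shared, against 5.39% of all genes tested. These were 4 of 16 of the secondary and tertiary (25%) and 5 of 8 of the primary granules (62.5%). The shared ones described here had low levels in spleen, apart from Cybb. Cybb, also counted among the NADPH oxidase genes, differed between bone marrow and spleen by a log2 difference of only 1.65. Ngp, a granule protein of maturing neutrophils (chromosome 9, 110419747 to 110423012, plus strand), had 334, 413 and 678 CPM in bone marrow, 0, 1.97 and 6.93 CPM in spleen and 0, 0 and 0.0994 CPM in lung. Its bone marrow libraries were all above its spleen libraries, and both tissues were above all others in 11 of 12 mice. The smallest difference, 5.31 ± 0.41 (spleen against gonadal fat, adjusted p = 5.73e-17), was the largest among shared genes with official symbols and a mean of 1 CPM or more in both tissues. Camp (cathelicidin) had 132, 256 and 532 CPM in bone marrow, 0, 0.824 and 2.35 CPM in spleen and 0, 0 and 0.204 CPM in skin, with a smallest difference of 4.19 ± 0.52 (spleen against skin, adjusted p = 4.36e-09). Where nearly all libraries of a tissue hold no count, as here, a fitted fold change depends on the prior count of the model. The bone marrow level exceeded the spleen level by a log2 difference of 7.58 ± 0.28 (adjusted p = 3.67e-42) for Ngp and 8.12 ± 0.28 (adjusted p = 1.21e-37) for Camp. Fcnb (ficolin B) followed at 3.74 ± 0.61 (spleen against heart, adjusted p = 7.49e-05), and its call was lost with DESeq2 (2.57) and in male mice alone (2.87). All 16 secondary and tertiary granule features were higher in bone marrow than in spleen (Itgam counts under 2 identifiers). Retnlg and Mmp8 missed the rule, since their spleen medians of 0.411 and 0.333 CPM lay close to those of lung (0.269 and 0.17).

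The promoter of Camp is shown as that of a granule gene with a bone marrow level far above all other tissues. It lies at chr9:109849407-109849706, minus strand (RefSeq, GRCm38.p6), and capitals mark a match to the KLF letters CCACACCC that begins at -105 from the start.
Camp: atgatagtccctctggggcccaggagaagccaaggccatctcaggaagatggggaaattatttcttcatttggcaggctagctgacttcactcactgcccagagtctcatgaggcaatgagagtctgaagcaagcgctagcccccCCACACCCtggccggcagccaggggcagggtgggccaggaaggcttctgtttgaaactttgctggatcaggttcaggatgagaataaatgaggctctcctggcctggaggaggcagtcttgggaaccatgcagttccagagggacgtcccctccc
The RefSeq windows of Ngp and Fcnb held none of the motifs searched.

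Primary granule genes, made by promyelocytes, passed in 5 of 8 cases (62.5%, against 5.39% of all genes tested). Mpo (myeloperoxidase) had 33.1, 54.9 and 82.1 CPM in bone marrow, 0.348, 1.56 and 4.26 CPM in spleen and 0, 0.414 and 0.926 CPM in kidney, with a smallest difference of 2.20 ± 0.31 (spleen against kidney, adjusted p = 1.64e-08). Ctsg (cathepsin G) and Elane (neutrophil elastase) had 2.71 ± 0.56 (spleen against gonadal fat, adjusted p = 0.00494) and 1.58 ± 0.43 (spleen against gonadal fat, adjusted p = 0.0113), with spleen medians of 0.133 and 0.206 CPM, and both calls were lost with DESeq2. Leaving out 1 mouse ended the calls of Ctsg (2.37 without C_3) and Elane (1.43 without C_4, 1.49 without C_11, 1.43 without C_61). Prtn3 (proteinase 3) did not pass, with a spleen median of 0.186 CPM below that of gonadal fat (0.408). The calprotectin genes of mature neutrophils were shared with lung as the nearest tissue. S100a8 had 596, 1072 and 2573 CPM in bone marrow, 0, 2.15 and 7.84 CPM in spleen and 0.461, 1.13 and 1.74 CPM in lung, with a smallest difference of 1.34 ± 0.37 (spleen against lung, adjusted p = 0.0115), and S100a9 had 1.46 ± 0.34 (spleen against lung, adjusted p = 0.00147). The spleen and lung levels of S100a8 overlapped, and the call was lost with DESeq2 (1.24). With 1 mouse left out it ended for S100a8 (1.02 without C_4). Cxcr2, the chemokine receptor that draws neutrophils out of the marrow, had 0.87 ± 0.21 (spleen against lung, adjusted p = 0.00169).

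Of the 6 subunits of the phagocyte NADPH oxidase, which makes superoxide, 5 were shared (83.3%, against 5.39% of all genes tested). Ncf4 had 19.1, 20.8 and 24 CPM in bone marrow, 4.26, 6.94 and 8.69 CPM in spleen and 0.649, 1.37 and 3.52 CPM in gonadal fat, with a smallest difference of 2.06 ± 0.25 (spleen against gonadal fat, adjusted p = 7.32e-11). Cybb (gp91phox) and Ncf1 (p47phox) had 1.02 ± 0.22 (spleen against gonadal fat, adjusted p = 0.000433) and 0.91 ± 0.23 (spleen against gonadal fat, adjusted p = 0.00335). Cyba (p22phox), the partner of several oxidases, was not shared, since kidney had a median of 22.2 CPM against 18.5 in bone marrow and 11.7 in spleen.

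Monocyte and macrophage genes passed in 2 of 22 cases, Ly6c2 (1.73 ± 0.28, spleen against lung, adjusted p = 6.51e-07) and Cx3cr1 (1.13 ± 0.29, spleen against lung, adjusted p = 0.00526). That is 9.09% of the list, near the 5.39% of all genes tested. Csf1r, the receptor that macrophages depend on, had 11.7, 16.2 and 18.3 CPM in bone marrow, 19.5, 56.9 and 61.1 CPM in spleen and 29, 53 and 78.4 CPM in gonadal fat. Every gonadal fat library was above every bone marrow library, with a log2 difference of -1.71 ± 0.18 for bone marrow against gonadal fat. The mean of the whole monocyte and macrophage list was 5.50 to 6.29 in bone marrow, 4.93 to 6.47 in spleen and 5.68 to 7.98 in gonadal fat on the log2 scale. Its part in the margin that gonadal fat sets for other genes was not tested. In the red pulp macrophage list 2 of 14 genes passed (14.3%, in a short list), Treml4 (1.93 ± 0.28, bone marrow against liver, adjusted p = 5.83e-08) and Adgre4 (1.50 ± 0.29, bone marrow against liver, adjusted p = 4.83e-05). Vcam1, an adhesion molecule that these macrophages carry, did not pass, with medians of 7 CPM in bone marrow, 47.7 in spleen and 8.69 in lung.

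Red cell genes were shared in part. Surface proteins of red cell precursors were among those with the largest margins: Kel, a membrane protein that carries the Kell blood group (chromosome 6, 41686330 to 41704339, minus strand), had 1, 2.17 and 5.59 CPM in bone marrow, 0, 1.31 and 7.55 CPM in spleen and 0, 0 and 0.183 CPM in heart, with a smallest difference of 4.81 ± 0.48 (spleen against heart, adjusted p = 5.42e-12). Both tissues were above all others in 10 of 12 mice, and the highest level of Kel in any other tissue was below its lowest bone marrow level. Ermap, which carries the Scianna blood group, had 1.7, 3.39 and 6.93 CPM in bone marrow, 0, 1.56 and 23.6 CPM in spleen and 0, 0.0322 and 0.523 CPM in skin, with 4.65 ± 0.48 (spleen against skin, adjusted p = 2.34e-12), and Hemgn (hemogen), a nuclear protein of the red cell lineage, had medians of 1.54 and 0.688 CPM and 4.54 ± 0.51 (spleen against skin, adjusted p = 6.4e-11). Epb42 of the membrane skeleton and Rhag, the Rh-associated glycoprotein, followed at 2.94 ± 0.46 (bone marrow against heart, adjusted p = 4.61e-07) and 1.84 ± 0.36 (bone marrow against kidney, adjusted p = 9.1e-05), and Car1 (carbonic anhydrase 1) at 2.59 ± 0.46 (spleen against liver, adjusted p = 1.94e-05). None of Kel, Ermap, Hemgn and Epb42 differed between bone marrow and spleen beyond the threshold. Of 19 tested genes of the red cell membrane list 5 were shared (26.3%, against 5.39% of all genes tested), and 1 of these 5 was higher in spleen. Among the 19, 6 were higher in spleen and 2 in bone marrow. The red cell membrane list was highest in spleen of mouse C_22, with a mean of 6.78 on the log2 scale against 3.22 to 5.75 in the other 11. Without that mouse the smallest differences of Kel, Ermap and Hemgn were 4.59, 4.13 and 4.13.

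The promoters of Kel and Hemgn are shown because these red cell genes have close to no counts outside the blood-forming tissues. They lie at chr6:41704276-41704575, minus strand and chr4:46404134-46404433, minus strand (RefSeq, GRCm38.p6), and capitals mark matches to the GATA letters AGATAA (at -56 from the start of Kel and 28 after that of Hemgn) and, in Hemgn, to TATAAA (at -80).
Kel: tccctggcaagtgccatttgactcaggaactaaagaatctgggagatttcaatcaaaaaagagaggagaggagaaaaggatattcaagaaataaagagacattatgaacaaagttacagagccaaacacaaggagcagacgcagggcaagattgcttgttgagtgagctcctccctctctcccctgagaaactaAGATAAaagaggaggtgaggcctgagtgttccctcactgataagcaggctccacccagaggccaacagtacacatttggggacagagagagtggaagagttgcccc
Hemgn: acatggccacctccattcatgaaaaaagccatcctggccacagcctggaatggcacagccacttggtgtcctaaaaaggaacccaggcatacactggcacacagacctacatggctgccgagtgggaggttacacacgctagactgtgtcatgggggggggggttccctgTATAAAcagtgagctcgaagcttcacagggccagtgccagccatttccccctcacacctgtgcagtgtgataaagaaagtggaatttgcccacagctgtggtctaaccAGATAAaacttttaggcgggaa
Epb42 also held the GATA letters, on the opposite strand, at -226 from its start, and Ermap and Rhag did not hold them.

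None of the 4 globins and none of the 9 haem synthesis genes was shared. At the 5.39% of all genes tested, lists this small would hold few or none, so these counts lie near that share. Hbb-bs, an adult beta globin, had 18.5, 48.7 and 84 CPM in bone marrow, 25.8, 437 and 889 CPM in spleen, 127, 766 and 2356 CPM in heart and 150.4, 301 and 894 CPM in lung. Heart lay above bone marrow in every library, so that bone marrow against heart gave a log2 difference of -3.90 ± 0.38, and bone marrow lay below spleen by -2.90 ± 0.36 (adjusted p = 3.47e-11). Alas2, the red cell enzyme that starts haem synthesis, had medians of 1.86 CPM in bone marrow, 17.8 in spleen, 27.6 in heart and 8.88 in lung. The anion exchanger Slc4a1 was limited by kidney, where it had a median of 4.66 CPM against 4.89 in bone marrow (0.08 ± 0.29, bone marrow against kidney, adjusted p = 1). Globin reads can be split between near-identical copies, and how much blood each tissue held was not tested. Slc25a37 (mitoferrin 1), the mitochondrial iron carrier, was the shared gene of the iron list, with 1.17 ± 0.18 (bone marrow against heart, adjusted p = 2.16e-07), while the transferrin receptor Tfrc had medians of 18.1 CPM in bone marrow, 8.96 in spleen and 22.3 in heart.

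Platelet and megakaryocyte genes passed in 2 of 18 cases (11.1%, against 5.39% of all genes tested). Itga2b, the platelet integrin chain, had 3.98, 4.94 and 6.81 CPM in bone marrow, 1.04, 3.15 and 5.42 CPM in spleen and 0.367, 1.05 and 4.18 CPM in heart, with a smallest difference of 1.14 ± 0.25 (spleen against heart, adjusted p = 0.00043). Ppbp, a platelet chemokine, had 1.01 ± 0.28 (bone marrow against heart, adjusted p = 0.00898), and its call was lost under 7 of 24 alternatives. The call also ended when 1 mouse was left out for Ppbp (any of 4 mice, 0.74 to 0.87). P2rx1, Gp9 and Itgb3 were higher in all 14 contrasts without passing (0.79 ± 0.34, spleen against kidney, adjusted p = 0.299, 0.75 ± 0.40, spleen against heart, adjusted p = 0.794 and 0.46 ± 0.19, spleen against lung, adjusted p = 0.281).

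Few genes of the dividing cell were shared. None of 32 mitosis genes and none of 17 DNA repair genes was. These counts lie near the 5.39% of all genes in lists of this size. The 9.09% of the DNA replication genes also lay near that share, and 17.4% of the histone genes were shared. Of the 32 mitosis genes 30 were higher in bone marrow than in spleen. Mki67, present in dividing cells, had 93.5, 111 and 135 CPM in bone marrow, 32, 43 and 118 CPM in spleen, 18.7, 37.9 and 78.9 CPM in skin and 0.546, 22.8 and 50.2 CPM in gonadal fat. Every bone marrow library was above every skin library, but spleen overlapped skin and gonadal fat, and the smallest difference was 0.29 ± 0.33 (spleen against skin, adjusted p = 1). The mean of the mitosis list in gonadal fat was 3.53 to 5.31 on the log2 scale in 9 mice and 1.19 to 1.49 in mice C_11, C_22 and C_4, against 4.20 to 5.72 in spleen and 4.05 to 5.38 in skin. Of 33 DNA replication genes 3 were shared, Pold1 (1.42 ± 0.19, spleen against skin, adjusted p = 2.07e-09), E2f2 (1.12 ± 0.27, spleen against skin, adjusted p = 0.00216) and Mcm2 (0.76 ± 0.21, spleen against skin, adjusted p = 0.00867), and skin was nearest for each. Mcm5, a subunit of the replicative helicase, had medians of 8.52 CPM in bone marrow, 6.65 in spleen, 4.48 in gonadal fat and 4.16 in skin, and missed the rule (0.72 ± 0.24, spleen against skin, adjusted p = 0.0651). Without the subscapular fat library of mouse C_20, 5 replication genes were shared, Mcm5 among them. Of 23 replication-dependent histone genes 4 were shared, led by Hist1h2ae (1.27 ± 0.41, spleen against gonadal fat, adjusted p = 0.0471) and Hist1h2ak (1.14 ± 0.31, spleen against skin, adjusted p = 0.00792), and 2 were shared without the 4 libraries or without the replicate block. Calls that ended without 1 mouse were those of Mcm2 (0.63 without C_11, 0.70 without C_71), Hist1h2ae (any of 11 mice, 0.90 to 1.39) and Hist1h2bb (any of 6 mice, 0.73 to 0.97). These histone genes are near-identical copies, and their counts can be split between them.

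**Figure D4:**
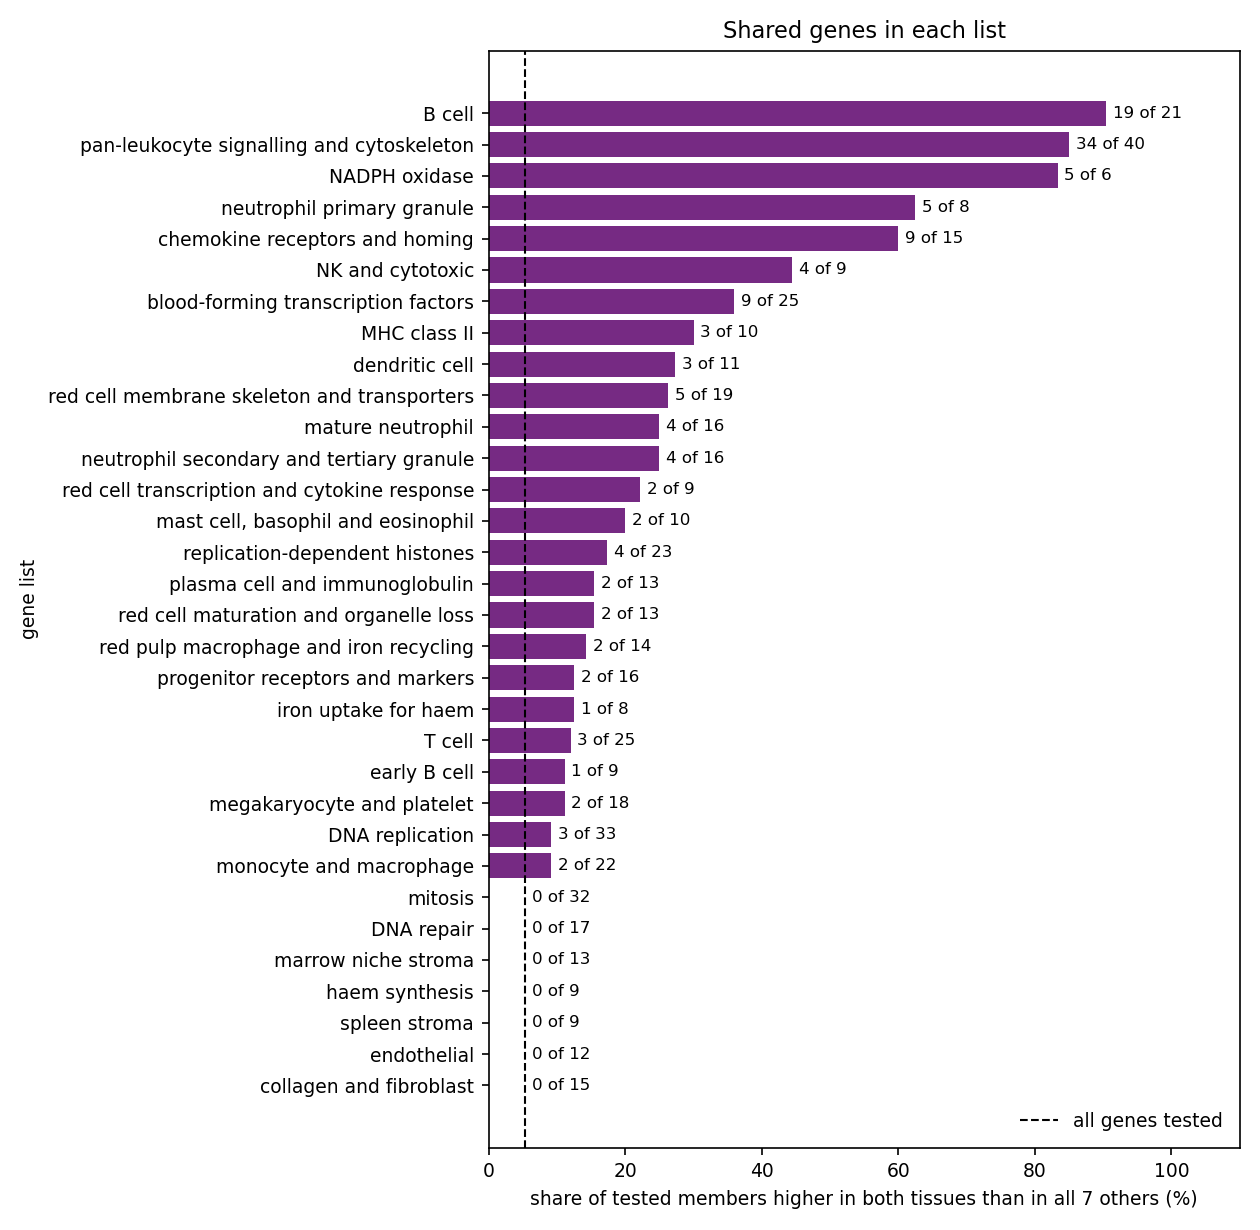
Share of the tested members of each gene list (vertical axis) that were higher in bone marrow and spleen than in all 7 other tissues (horizontal axis, percent), with the counts beside each bar and the share of all genes tested, 5.39%, as a dashed line. The B cell list (19 of 21), the pan-leukocyte list (34 of 40) and the NADPH oxidase (5 of 6) have the largest shares, and the mitosis, DNA repair and haem synthesis lists have none.

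Genes outside these lists also had large margins. Acap1, a regulator of integrin recycling, had 19.9, 23.4 and 26.1 CPM in bone marrow, 13.6, 18.2 and 25.1 CPM in spleen and 0.818, 1.27 and 1.79 CPM in lung, with 3.96 ± 0.34 (spleen against lung, adjusted p = 6.63e-17). Mir142hg, the host transcript of a microRNA of blood cells, had 3.97 ± 0.36 (spleen against gonadal fat, adjusted p = 1.71e-15), Treml2, a receptor of the TREM family, 3.77 ± 0.35 (spleen against lung, adjusted p = 1.84e-15), and Traf3ip3, an adaptor of lymphocytes, 3.71 ± 0.34 (bone marrow against lung, adjusted p = 1.75e-15). Zfp831, a zinc finger gene, had 3.67 ± 0.34 (bone marrow against lung, adjusted p = 2.53e-15), and Fam129c (BCNP1, a B cell protein) 3.60 ± 0.29 (spleen against heart, adjusted p = 4.27e-17). Olfr164, annotated as an olfactory receptor, had 1.38, 2 and 3.44 CPM in bone marrow, 0.955, 2.66 and 3.95 CPM in spleen and 0.0848, 0.191 and 0.307 CPM in lung, with 3.55 ± 0.43 (bone marrow against lung, adjusted p = 2.34e-10). Of these 7 genes Treml2 and Fam129c differed between bone marrow and spleen (0.90 ± 0.27, adjusted p = 0.00252 and 1.03 ± 0.21, adjusted p = 2.37e-05). Both tissues were above all others in 12 of 12 mice for each of the 7.

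Promoters were matched by symbol for 560 of the 964 symbols in the shared set, in the RefSeq table of windows from 250 bases before to 50 after each start (GRCm38.p6). The ETS letters GAGGAAG, on either strand, occurred in 24.5% of these 560 genes, in 15.9% of the 11458 tested genes with a promoter and in 15.4% of all 27025 genes in the table. The RUNX letters TGTGGTT occurred in 10.4%, 4.70% and 6.09%, the KLF letters CCACACCC in 6.25%, 4.57% and 4.09%, and the GATA letters AGATAA in 10.4%, 8.70% and 12.7%. The letters TATAAA occurred in 12.1%, 10.4% and 15.7%. The mean GC content of the windows was 56.8% in the shared set, 59.6% in the genes tested and 53.6% in the table. Among shared members of the fixed lists, the ETS letters were present in 8 of 28 pan-leukocyte genes, 4 of 15 B cell genes, 4 of 11 neutrophil genes and 0 of 7 red cell genes, and the GATA letters in 5 of 28, 0 of 15, 2 of 11 and 3 of 7. A match describes letters in this window only, and the motifs can overlap each other. Ptprc is shown as the gene that defines leukocytes. The RefSeq window shown lies at chr1:138175077-138175376, minus strand, with a GATA match, in capitals, at -25 from the start. The window of the other RefSeq start of Ptprc held no GATA match, only the letters TATAAA on the opposite strand at -187.
Ptprc: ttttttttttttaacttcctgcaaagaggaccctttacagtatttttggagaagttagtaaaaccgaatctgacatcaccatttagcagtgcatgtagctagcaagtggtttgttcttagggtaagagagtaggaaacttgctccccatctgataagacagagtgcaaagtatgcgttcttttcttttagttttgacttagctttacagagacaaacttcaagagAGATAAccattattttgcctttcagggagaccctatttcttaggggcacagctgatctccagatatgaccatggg

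The balance between bone marrow and spleen was not used by the rule. Of the 967 shared genes, 557 differed between them (edgeR, adjusted p below 0.05), 359 higher in bone marrow and 198 higher in spleen. Over all genes tested, 25.8% were higher in bone marrow and 32.0% higher in spleen. The shares within the shared set were 37.1% and 20.5%. Among shared genes with official symbols and a mean of 1 CPM or more in both tissues, the largest differences in favour of bone marrow were those of S100a8 (8.63 ± 0.42, adjusted p = 2.26e-33), S100a9 (8.46 ± 0.40, adjusted p = 1.87e-34), Ngp, Pram1, an adaptor of myeloid cells (5.04 ± 0.26, adjusted p = 4.52e-32), and Mpo (4.94 ± 0.23, adjusted p = 1.87e-34). The largest in favour of spleen, under the same limits, were those of the kappa chain segments Igkv5-39 (-5.07 ± 0.36, adjusted p = 3.89e-23) and Igkv4-55 (-3.75 ± 0.38, adjusted p = 1.94e-14), the complement receptor Cr2 (-3.74 ± 0.37, adjusted p = 2.6e-15), the ubiquitin ligase Dtx1 (-3.27 ± 0.31, adjusted p = 2.53e-16) and Cxcr5, which guides B cells into follicles (-3.12 ± 0.35, adjusted p = 4.7e-13). Cr2, a receptor of mature B cells, had 2.55, 4.54 and 6.04 CPM in bone marrow, 36.2, 60.7 and 73.7 CPM in spleen and 0, 0.304 and 33.9 CPM in subscapular fat. In the pan-leukocyte list 25 of 34 shared members did not differ beyond the threshold, 8 were higher in bone marrow and 1 was higher in spleen. Membership in the shared set ended without 1 mouse for Pram1 (any of 10 mice, 0.91 to 1.10), Igkv5-39 (any of 5 mice, 1.31 to 1.40) and Cxcr5 (any of 7 mice, 1.13 to 1.30). By group, 16 of 19 shared B cell genes were higher in spleen, and each of the 9 shared primary, secondary and tertiary granule genes was higher in bone marrow.

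**Figure D5:**
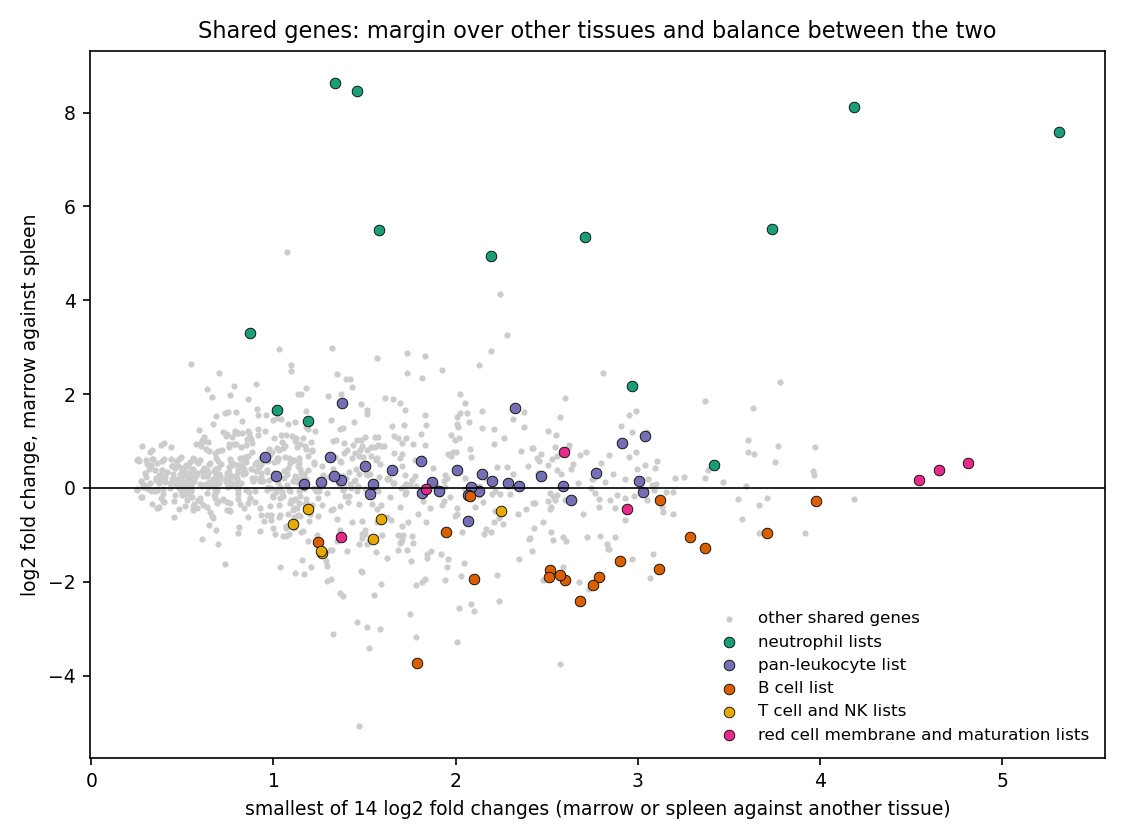
For each of the 967 shared genes, the log2 fold change of bone marrow against spleen (vertical axis) is plotted against the smallest of its 14 log2 fold changes over the other tissues (horizontal axis), with gene lists in colour. Neutrophil genes lie above 0, most B cell genes below it, and most pan-leukocyte and red cell genes near it.

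The opposite pattern, lower in bone marrow and in spleen than in each of the 7 tissues, was met by 544 genes (3.03% of those tested). The genes with the widest margin were Slc38a3, an amino acid transporter, Me1 (malic enzyme 1), Inmt, a methyltransferase, the non-muscle myosin Myh14, Tln2 (talin 2), the kinesin Kif21a, the proteoglycan Lum (lumican) and Pacsin3. Me1 had 0, 0.112 and 0.85 CPM in bone marrow, 0, 0.514 and 1.16 CPM in spleen and 6.54, 9.08 and 24.6 CPM in lung, and its difference closest to 0 was -4.09 ± 0.35 (adjusted p = 9.86e-17). Tln2, which links integrins to actin in many tissues, had medians of 0.425 CPM in bone marrow and 0.386 in spleen against 5.46 to 50.6 elsewhere. Collagen, endothelial, marrow stroma and spleen stroma lists had no gene in the shared higher set. Lists of this size would hold few or none at the 5.39% of all genes tested. Of 12 endothelial genes 11 were higher in spleen than in bone marrow, and none was lower in both than in all 7.

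In the aPAPPA mice the same rule was applied to 10 animals, with heart of mouse C_56, gonadal fat of C_58 and skin of C_36 left out because their tissue markers were low. There 764 of 17637 genes were shared (4.33%). Of the 967 genes found in control mice, 962 were tested in the aPAPPA mice, 695 passed, and 951 were higher in all 14 contrasts. The median of the smallest difference over these genes was 1.24 in control and 1.05 in aPAPPA mice. In aPAPPA mice the smallest difference was 6.01 (adjusted p = 5.7e-15) for Ngp, 3.78 (adjusted p = 5.49e-06) for Kel, 2.56 (adjusted p = 3.25e-10) for Cd79a and 2.59 (adjusted p = 3e-14) for Ptprc. All 19 shared B cell genes and 33 of the 34 pan-leukocyte genes passed again, as did 4 of 5 red cell membrane genes, and none of the 4 histone genes did. Klf1 and Ncr1 were not tested there.

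Within each tissue the arms and the sexes were compared directly. None of 960 shared genes tested in bone marrow and none of 939 tested in spleen differed between aPAPPA and control mice with edgeR, and limma-voom called none either. Over all genes tested the calls were 1 of 13812 in bone marrow (0.00724%) and 0 of 13066 in spleen (0.0%). At an unadjusted p below 0.05 stood 71 of the 960 shared genes in bone marrow (7.40%, against 6.94% of all genes) and 57 of the 939 in spleen (6.07%, against 5.21%). Between female and male control mice no shared gene of 940 differed in bone marrow with edgeR or limma-voom (67 at an unadjusted p below 0.05, which is 7.13% against 6.10% of all genes), where 10 of 12143 genes were called (0.0824%). In spleen 7 of 921 shared genes differed, and 64 of 11846 genes in all (0.54%), and with limma-voom 13 and 97. At an unadjusted p below 0.05 stood 159 of the 921 (17.3%, against 11.8% of all genes). Fcer2a (CD23), a receptor of mature B cells, was higher in males, with 9.29, 12.1 and 13.2 CPM in females and 17.2, 19.1 and 23.5 CPM in males (log2 difference 0.68, adjusted p = 0.00984). No male library overlapped the females. Il9r, the interleukin 9 receptor, was higher in females, with 5.42, 8.15 and 10.1 CPM in females and 3.98, 4.43 and 5.74 CPM in males (log2 difference -0.84, adjusted p = 0.0248), and these ranges overlapped. Fcer2a and Il9r were chosen for description after their values were seen. The other 5 were Fau, Iglv3, A530040E14Rik, Gm11960 and a feature named by a transcript identifier.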

How the data were processed

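RNA of whole tissues was prepared with a 96-well Qiagen kit including DNase, and 100 ng went into a stranded total RNA library with 12 PCR cycles (per the labels' protocols). The submitters' processing notes name FastQC 0.11.5, Salmon and build mm10. The values are whole-number counts as deposited by the authors; no source used here says how Salmon's estimates were made whole or which strand option was chosen. Gene coordinates are from GENCODE vM21 (mm10).

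Control counts were fitted with edgeR 4.0.16 (R 4.3.3; quasi-likelihood F-test, TMM, filterByExpr, tissue with mouse as a block). A gene's p was the largest of its 14 two-sided p-values where all 14 log2 fold changes had the same sign, adjusted by Benjamini-Hochberg over all genes tested, with a threshold of 0.05. The largest p of 14 is a strict rule. On simulated counts of 17937 genes it recovered 11.4% of 1.5-fold, 60% of 2-fold and 95% of 4-fold shared changes and called none of the unchanged genes. Unchanged genes had the same mean in all 9 tissues, without a mouse effect, and could hardly pass all 14 contrasts. Changed genes were drawn only from those above a low count limit. These rates therefore do not carry over to genes that vary among the other tissues or lie near 0 counts. The mouse pairs the tissues, since each animal gave all 9; the mean correlation of deviations from the tissue mean was 0.051 within and -0.004 between mice. The sexes and arms were fitted within bone marrow and within spleen, the arms with sex as covariate. List levels are mean log2 CPM of a list outside the abundant features.

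The members and the 43 gene lists were chosen with earlier results of these data known. Genes were named by a rule: the 15 shared genes with the largest smallest difference (1 CPM or more in bone marrow and spleen, official symbol), up to 4 shared and 3 other members per described list, 17 core genes where tested, 3 on each side of the threshold, 8 shared lower genes, 5 in favour of each tissue and the 3 most like Ptprc. Of the genes this rule names, 2 are not reported here. Alternatives (DESeq2 1.42.0, limma 3.58.1 voom, scaling, filter, block, libraries, mice, tissues, sexes, adjustment, fold minimum, gene names) are given in the closing section. Fits without the libraries in doubt were chosen after seeing the data. Python 3.11.15, pandas 2.3.3, numpy 2.4.6 and matplotlib 3.10.9 were used.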

Additional observations from a re-analysis of the deposited data

Results flagged for a closer look

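Levels of 15 of the core genes were checked for a library standing apart in bone marrow and in spleen of the 10 aPAPPA mice, 30 groups in all. In 1 of them the gap between the lowest library and the next, divided by the whole range, exceeded Dixon's limit of 0.466 for 10 samples. Ptprc in spleen of aPAPPA mouse C_6 was at 7.05 on the log2 CPM scale, where the next lowest library was at 7.40 and the highest at 7.71 (ratio 0.533). Chance alone flags about 1 in 20 groups.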

How the results depend on the processing

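The count of shared higher genes, 967, was 834 to 1072 with DESeq2, RLE scaling or limma-voom, all genes unfiltered, the abundant features removed, the 2 libraries put back, counts summed by name and in the 2 fits without libraries in doubt, and that of shared lower genes, 544, was 511 to 564. RLE scaling kept 948 of the 967 and DESeq2 944; RLE moved the median log2 fold change over all genes by -0.05 to 0.13 per contrast. Without the replicate block the counts were 943 and 556, the marrow against spleen count 549 (main 557) and the aPAPPA repeat 704 (main 695). Counts within lists that moved by over 1.5 times without the block were those of replication-dependent histones (2, main 4), progenitor receptors (1, main 2), red cell transcription (1, main 2) and early B cell genes (0, main 1). The fit without the block ended the calls of Il7r, Klf1, Cd8a (0.68), Ncr1, Hist1h2ae, Hist1h2bb, Dido1, Cd80, Igkv5-39 and Cr2 (0.73), and DESeq2 those of Klf1, Ctsg, Elane, Fcnb, S100a8, H2-Oa (1.45), Hist1h2ae, Hist1h2bb and Cxcr5 (1.41). With 1 mouse left out they were 820 to 991 and 487 to 560, and 525 to 586 of the shared genes differed between marrow and spleen. Larger moves came with fewer samples, fewer tissues or another threshold. In females alone 515 were higher and 287 lower, and in males alone 590 and 307. Without skin in the rule 1515 were higher and 1035 lower. A minimum of 1 on every log2 fold change left 621 and 312, and adjusting each contrast on its own gave 1334 and 875. limma-voom called 13 shared genes between the sexes in spleen where edgeR called 7. Of 94 named genes that were called, 45 kept their call under every alternative that could be fitted, and no named gene that was called changed direction. The low count filter, the depth outside the abundant features and 6 mice per sex limit what small or rare-cell differences can show.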
